A study of Mus musculus with 6 samples.

Results

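The genes described here are 10 members of the hypoxia response: Ndufa4l2, Egln3, Ankrd37, Bnip3, Vegfa, Pdk1, Hk2, Slc2a1, Slc2a3 and Hif1a. They are 10 of the 21409 genes that the RNA-seq libraries list once each gene is reduced to the RefSeq row with the most counts. Ndufa4l2 was chosen because it had shown the largest fall, in the cohesin (SMC1) and condensin II (CAPH2) knockdowns, among genes that both complexes occupy, so its levels against the control are given as a description with no test. The other 9 were chosen as known genes of the pathway, to ask whether they moved with Ndufa4l2. That choice was made with earlier results of these data known, so the tests below are not of genes picked blind to the data. All libraries came from V6.5 murine ESCs (C57BL/6-129), infected with a lentivirus that expressed 1 shRNA. The control shRNA targeted GFP (1 library), and the knockdown shRNAs targeted SMC1 (1 library), CAPH2 (2 libraries, CAPH2 #1 and CAPH2 #2) and SMC2 (2 libraries, SMC2 #1 and SMC2 #2). CAPH2 #1 and #2 are named as in the construct list of the study, matched by the hairpin identifiers of the samples, while the sample notes number the same hairpins 3 and 4, which in that list are other constructs. The 2 libraries of a target are different hairpins and not repeats of 1 hairpin, so their spread joins the difference between hairpins and that between cultures. Per the labels every group, the control included, was selected with puromycin at 0.5 and then 1 µg/ml and collected 96 hours after the start of selection, while the study's methods give another puromycin concentration. The cells had been grown on irradiated embryonic fibroblasts and were passaged off them before the RNA was taken.

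HIF-1 is a transcription factor made of an oxygen-regulated alpha subunit, encoded by Hif1a, and a stable partner, encoded by Arnt. When oxygen is present, prolyl hydroxylases such as EGLN1 and EGLN3 mark the alpha subunit for VHL-dependent degradation, so HIF-1 is set mainly by protein stability and the Hif1a transcript is not a readout of its activity. Active HIF-1 binds the letters ACGTG or GCGTG near its target genes and raises glucose uptake, glycolysis, angiogenic signals and mitophagy, and pluripotent cells are known for a strongly glycolytic metabolism.

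The libraries held 25467427 to 31337313 counts each over all rows, and the RPKM values (reads scaled to the exon length and to the reads of the library) rest on 18823245 to 23324537 reads. Each targeted transcript was lower in its own knockdown than in the GFP library: 39.9% of the GFP level was left for Smc1a, 21.0% and 34.8% for Ncaph2 with CAPH2 #1 and #2, and 70.7% and 71.9% for Smc2 with SMC2 #1 and #2. The SMC1 library stood apart in its cell type markers. The summed RPKM of 7 ESC markers was 2666 in the GFP library, 2229 to 2378 in the condensin libraries and 1211 in the SMC1 library, where all 7 were lower than in GFP. The summed RPKM of 8 fibroblast markers was 49.2 in the GFP library, 53.5 to 80.2 in the condensin libraries and 107.1 in the SMC1 library, although 2 of these markers, Lum and Dcn, were near 0 throughout (0 to 5 and 1 to 19 counts) and Thy1 was lower in the condensin libraries (5.36 to 7.04 RPKM) than in GFP (8.52). The summed RPKM of 6 trophectoderm markers was 168.9 in GFP, 131.2 to 175.9 in the condensin libraries and 285.8 in SMC1. In SMC1 Krt8, Krt18 and Cdx2 were higher than in GFP. Tfap2c (5.85 against 51.2 RPKM) and Eomes (3.43 against 5.03) were lower there, and Elf5 had 0 counts in both libraries. The sum of 7 primitive endoderm markers was 17.8 to 21.1 RPKM in all 6 libraries, but its members did not move alike in SMC1. Lama1, the most abundant, was at 6.47 RPKM there against 13.1 in GFP, and Gata6 was also lower. Dab2 (5.52 against 2.03 RPKM) and Gata4 (3.59 against 2.37) were higher than in GFP, as were the scarce Foxa2, Sox17 and Sox7. Synthetic ERCC RNAs, added by cell number, took 2.32% of reads in the GFP library, 2.40% in CAPH2 #2, 1.49% to 1.57% in the other condensin libraries and 1.27% in the SMC1 library. The RPKM values are shares of a library's reads, and in these bulk samples fewer expressing cells and less RNA per cell cannot be told apart.

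Ndufa4l2 (NM_001098789, mm9 chromosome 10 from 126951995 to 126954210, plus strand) encodes a mitochondrial relative of the cytochrome oxidase subunit NDUFA4 and is induced by HIF-1. Its level was 29.3 RPKM in the GFP library, 1.35 in SMC1, 5.79 in CAPH2 #1, 14.7 in CAPH2 #2, 4.11 in SMC2 #1 and 8.61 in SMC2 #2. The knockdown libraries were all below the control, and SMC1 was the lowest. With SMC1, 4.62% of the GFP level was left (95% exact binomial interval 2.96 to 6.88, from 25 against 606 counts). With CAPH2 the level left was 19.8% (16.3 to 24.0) for #1 and 50.2% (43.3 to 58.1) for #2. With SMC2 it was 14.0% (11.1 to 17.6) for #1 and 29.4% (24.6 to 34.9) for #2. None of the 5 intervals reached 100%, but all of these intervals cover counting error only, and all share the single GFP library. On the mean of the hairpins the log2 change was -1.51 for CAPH2 and -2.20 for SMC2, against -4.44 for SMC1. The hairpins of a target did not give the same level, and #2 was 2.54-fold above #1 for CAPH2 (95% exact interval 2.05 to 3.15) and 2.10-fold above #1 for SMC2 (1.61 to 2.74). The annotated exons overlap those of Shmt2 on the other strand by 14 of 960 bases, so in these unstranded libraries few of its reads could belong to that gene.

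**Figure D1:**
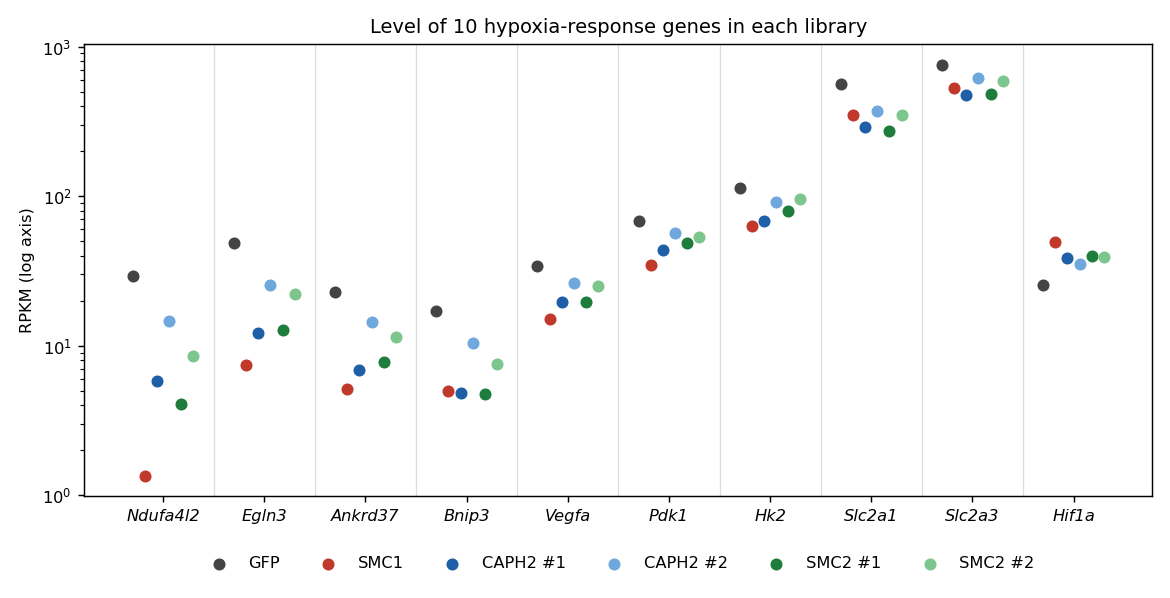
RPKM (log axis) of the 10 genes in each of the 6 libraries, 1 point per library. On the RPKM scale, which is not scaled to the ERCC RNAs, the GFP point is the highest for the 9 target genes and the lowest for Hif1a, and for Ndufa4l2 it lies at 29.3 RPKM against 1.35 in SMC1.

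Egln3, Ankrd37 and Bnip3 followed Ndufa4l2 most closely in size. Egln3 (NM_028133, chromosome 12 from 55279969 to 55304861, minus strand) encodes a prolyl hydroxylase that acts on HIF alpha subunits and is itself induced by HIF. It was at 48.5 RPKM in the GFP library, 7.49 in SMC1, 12.2 in CAPH2 #1, 25.3 in CAPH2 #2, 12.8 in SMC2 #1 and 22.1 in SMC2 #2. The SMC1 library held 15.4% of the GFP level (13.8 to 17.2), and the #2 hairpins, at 52.3% (48.9 to 55.9) for CAPH2 and 45.6% (42.6 to 48.8) for SMC2, held the most. Ankrd37 (NM_001039562, chromosome 8 from 47082262 to 47085204, minus strand), an ankyrin-repeat gene used as a marker of HIF activity, was at 23.0 RPKM in GFP, 5.18 in SMC1, 6.88 in CAPH2 #1, 14.3 in CAPH2 #2, 7.76 in SMC2 #1 and 11.4 in SMC2 #2. It kept the same order, with 22.5% (17.7 to 28.3) left in SMC1 and 62.3% (53.1 to 72.9) in CAPH2 #2. Its exons overlap those of Lrp2bp by 349 of 1403 bases and those of Ufsp2 by 57, both on the other strand, so some of its reads may belong to those genes. Bnip3 (NM_009760, chromosome 7 from 146082519 to 146101189, minus strand), a mitophagy receptor, was at 17.1 RPKM in GFP, 5.005 in SMC1, 4.86 in CAPH2 #1, 10.4 in CAPH2 #2, 4.78 in SMC2 #1 and 7.59 in SMC2 #2. For Bnip3 the SMC1 library was not the lowest: 29.2% (24.5 to 34.6) was left there, 28.3% (24.1 to 33.3) in CAPH2 #1 and 27.9% (23.6 to 32.8) in SMC2 #1, with overlapping intervals. The Bnip3 values are uncertain, because 94.2% of its transcript has near-identical copies (at least 95% identity) in 2 or more other places of the genome and the alignment discarded reads with more than 2 places.

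The letters bound by HIF-1 were looked for in the 250 bases before each annotated start of these genes. The windows came from the RefSeq promoter table (GRCm38.p6, a later build than the mm9 of the files). The table holds 10 windows for 8 of the 10 genes and none for Ndufa4l2 or Slc2a3. The windows below are shown because they hold the most matches among the target genes (Bnip3 and Ankrd37), belong to the most abundant target gene with a window (Slc2a1), or belong to the gene that moved the other way (Hif1a). Capitals mark ACGTG or GCGTG on either strand, 5′ to 3′ along the gene's strand.
Bnip3, chr7:138909507-138909756, minus strand: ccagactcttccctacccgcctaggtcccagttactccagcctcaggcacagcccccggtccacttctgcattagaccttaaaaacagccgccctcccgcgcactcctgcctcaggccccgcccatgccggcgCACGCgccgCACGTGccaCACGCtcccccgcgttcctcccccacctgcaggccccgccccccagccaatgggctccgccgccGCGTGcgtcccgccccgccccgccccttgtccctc
Ankrd37, chr8:45999851-46000100, minus strand: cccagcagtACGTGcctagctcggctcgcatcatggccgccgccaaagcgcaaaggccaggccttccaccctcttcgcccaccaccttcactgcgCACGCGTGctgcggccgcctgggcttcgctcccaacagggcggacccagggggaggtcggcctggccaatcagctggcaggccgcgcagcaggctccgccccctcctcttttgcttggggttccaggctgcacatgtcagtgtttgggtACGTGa
Slc2a1, chr4:119108495-119108744, plus strand: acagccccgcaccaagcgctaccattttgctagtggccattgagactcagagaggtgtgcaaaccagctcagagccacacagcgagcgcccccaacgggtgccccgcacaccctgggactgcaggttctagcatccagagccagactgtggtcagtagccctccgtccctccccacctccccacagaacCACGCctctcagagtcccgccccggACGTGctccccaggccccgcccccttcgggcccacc
Hif1a, chr12:73907617-73907866, plus strand: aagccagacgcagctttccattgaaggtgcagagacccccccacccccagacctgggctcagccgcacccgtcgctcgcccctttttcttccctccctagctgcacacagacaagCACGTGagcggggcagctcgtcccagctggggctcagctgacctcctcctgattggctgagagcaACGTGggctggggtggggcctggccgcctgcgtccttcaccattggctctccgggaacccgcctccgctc
Bnip3 has 5 matches and Ankrd37 has 4. Some overlap, since the palindrome CACGTG in the Bnip3 and Hif1a windows is read once on each strand, and it is also the E-box bound by other factors. ACGTG occurred in 7 of the 10 windows, 1 for each of 7 genes, and either motif in 8 of the 10, 1 for each of the 8 genes. Of all 32851 windows listed, 16.6% hold ACGTG, 28.2% hold GCGTG and 38.6% hold either. The main Vegfa window, before the start of its longer isoforms, had no match. The second Vegfa window had 1 of each but lies inside the gene, before the start of the shorter isoforms. Vegfa is among the 7 and the 8 genes only through that second window. The Pdk1 match was a GCGTG 78 bases before the start. The Hif1a window holds 3 matches to ACGTG, so the letters are found at a gene that rose as well as at genes that fell. These matches describe the letters only, as no binding was measured.

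Vegfa, Pdk1 and Hk2 were also lower than in GFP, by less than Ndufa4l2. Vegfa (NM_001025250, chromosome 17 from 46153943 to 46169326, minus strand) encodes the main angiogenic ligand induced by HIF. Its level was 34.0 RPKM in GFP, 15.1 in SMC1, 19.6 in CAPH2 #1, 26.2 in CAPH2 #2, 19.7 in SMC2 #1 and 24.9 in SMC2 #2. SMC1 was the lowest, at 44.3% of GFP (41.2 to 47.7), while CAPH2 #1 and #2 held 57.5% and 77.0% and SMC2 #1 and #2 held 58.0% and 73.3%. The files list 6 Vegfa isoform rows, which share most of their reads, and their log2 changes with SMC1 lay between -1.10 and -1.17. Pdk1 (NM_172665, chromosome 2 from 71711329 to 71741914, plus strand), the kinase that keeps pyruvate out of the mitochondrial citrate cycle, was at 68.6 RPKM in GFP, 34.9 in SMC1, 44.0 and 56.4 in CAPH2 #1 and #2, and 48.5 and 53.4 in SMC2 #1 and #2. SMC1 was again the lowest, with 50.8% left (48.8 to 52.9). Hk2 (NM_013820, chromosome 6 from 82675021 to 82724448, minus strand), the inducible hexokinase, was at 112.8 RPKM in GFP, 63.2 in SMC1, 68.2 and 91.2 in CAPH2 #1 and #2, and 79.4 and 96.0 in SMC2 #1 and #2. In SMC1 56.0% was left (54.4 to 57.7), and SMC2 #2 was the closest to the control at 85.1% (83.0 to 87.3).

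The glucose transporters were the most abundant of the 10 genes and showed another order of libraries. Slc2a1 (NM_011400, chromosome 4 from 118781350 to 118809934, plus strand), which encodes GLUT1, was at 562.8 RPKM in GFP, 348.0 in SMC1, 288.9 in CAPH2 #1, 373.1 in CAPH2 #2, 273.2 in SMC2 #1 and 347.6 in SMC2 #2. The lowest library was SMC2 #1, at 48.5% of GFP (47.6 to 49.5), while SMC1 and SMC2 #2 were both at 61.8%. Slc2a3 (NM_011401, chromosome 6 from 122677829 to 122692763, minus strand), which encodes GLUT3, was at 758.1 RPKM in GFP, 526.8 in SMC1, 473.8 in CAPH2 #1, 615.8 in CAPH2 #2, 484.2 in SMC2 #1 and 589.9 in SMC2 #2. Here CAPH2 #1 was the lowest, at 62.5% (61.7 to 63.3), and SMC1 held 69.5% (68.6 to 70.4). For both transporters the SMC1 library lay between the #1 and #2 hairpins of CAPH2 and of SMC2 or at the level of a #2 hairpin.

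Hif1a (NM_010431, chromosome 12 from 75008854 to 75048516, plus strand) moved in the opposite direction to its target genes. Its level was 25.6 RPKM in GFP, 49.3 in SMC1, 38.6 in CAPH2 #1, 35.1 in CAPH2 #2, 39.65 in SMC2 #1 and 39.1 in SMC2 #2. Every knockdown library was above the control, from 137% of GFP (130.2 to 144) in CAPH2 #2 to 192% (183 to 202) in SMC1, a direction shared by 26.5% of all genes. The log2 change was 0.94 for SMC1, 0.52 for the mean of the CAPH2 hairpins and 0.62 for that of the SMC2 hairpins. The ratio of #2 to #1 for Hif1a was 0.907 for CAPH2 (0.866 to 0.94999), an interval below 1, and 0.987 for SMC2 (0.944 to 1.03). The target genes had ratios above 1, of which the smallest was 1.10 (1.06 to 1.14) for Pdk1 with SMC2. Its exons overlap the other-strand gene Gm15283 by 330 of 5896 bases. The files hold transcripts only, so the HIF-1α protein was not measured.

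**Figure D2:**
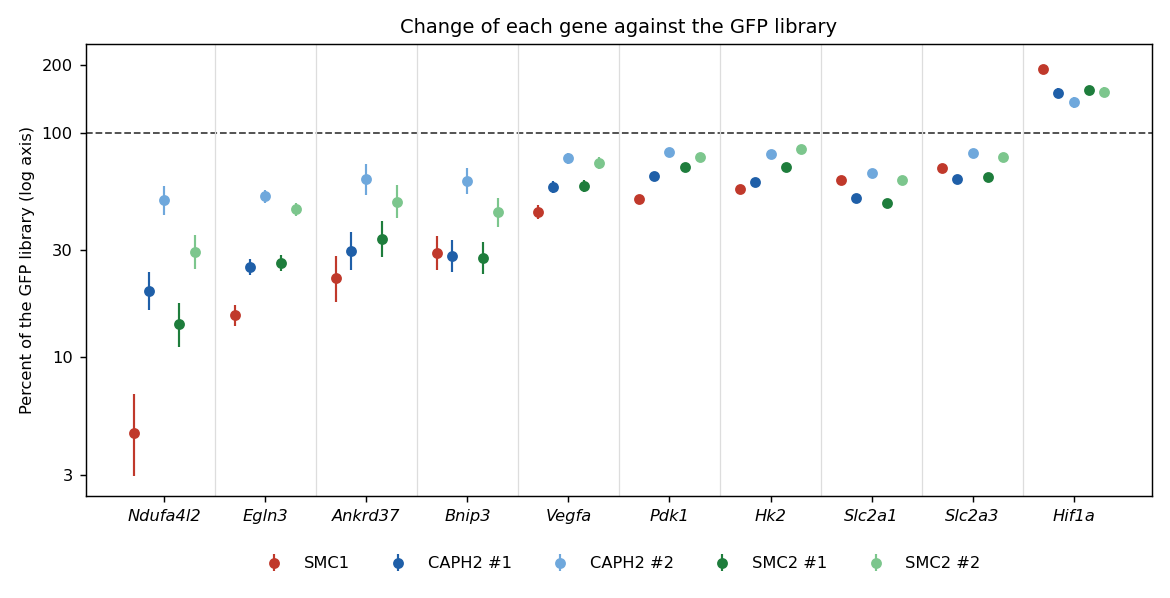
Level of each gene as a percent of the GFP library (log axis, dashed line at 100) in the 5 knockdown libraries, with 95% exact binomial intervals that cover counting error only. On this RPKM scale each target gene lies below the line in every library (with ERCC scaling 6 of 9 for SMC1 and for SMC2), the #2 hairpins lie above the #1 hairpins of the same target, and Hif1a lies above the line at 137% to 192%.

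Across the 9 target genes, all 9 were lower than GFP in RPKM in all 5 knockdown libraries (with ERCC scaling 6 were for SMC1, 9 for CAPH2 and 6 for SMC2, on the mean of the hairpins), a pattern shown by 32.5% of the 12381 genes with at least 1 RPKM in the GFP library. All 9 were also lower in the 4 condensin libraries alone, without the SMC1 library, against 38.3% of genes. Ndufa4l2 is 1 of the 9 and was chosen for its fall. The 5 comparisons share the GFP library, so an unusual level in that 1 library would enter all of them, and they are not independent. The median log2 change of the 9 was -1.17 with SMC1, -0.77 with CAPH2 and -0.86 with SMC2, while the median of all genes was -0.034, -0.015 and -0.031. A fall of at least 2-fold was seen with SMC1 for 5 of the 9 (Ndufa4l2, Egln3, Ankrd37, Bnip3 and Vegfa), and for 8.42% of all genes. With the mean of the CAPH2 hairpins and with that of the SMC2 hairpins 4 of the 9 fell at least 2-fold, the same list without Vegfa, against 0.630% and 0.509% of all genes. With CAPH2 #2 alone 0 of the 9 fell 2-fold, against 0.493% of all genes. On the ERCC scale 3 of the 9 fell at least 2-fold with SMC1, 2 with CAPH2 and 1 with SMC2, against 2.80%, 0.283% and 0.0969% of all genes. SMC1 was the lowest of the 6 libraries for 6 of the 9 genes, and for 38.0% of all genes.

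**Figure D3:**
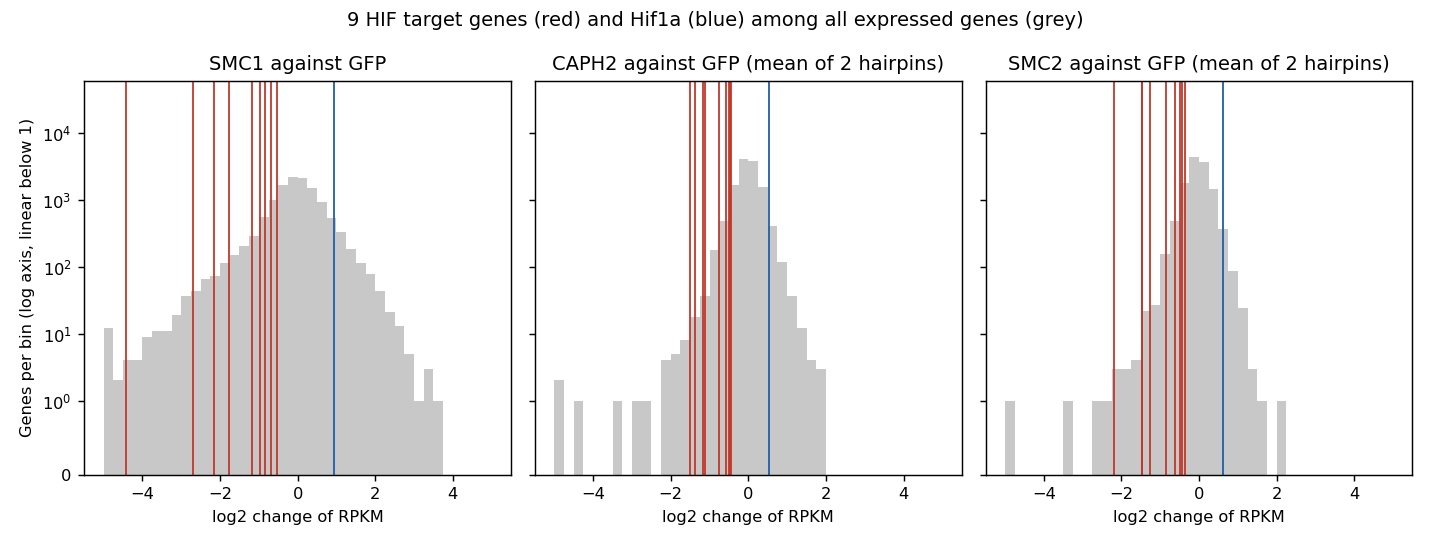
Histograms of the log2 change in RPKM against GFP for the 12381 genes with at least 1 RPKM in GFP (grey, values beyond 5 in size placed in the end bins), with a red line for each of the 9 target genes and a blue line for Hif1a. The red lines lie at negative values in each panel, from -4.44 to -0.53 with SMC1, -1.51 to -0.45 with CAPH2 and -2.20 to -0.36 with SMC2, while ERCC scaling brings 3 of them above 0 with SMC1 and 3 with SMC2.

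The hairpins of a target split the 9 genes in 1 direction, although hairpins of CAPH2 and SMC2 share no more than a number. All 9 were lower with #1 than with #2 for CAPH2 and for SMC2, as were 28.0% of all genes, and 11.5% of all genes had both this order and a lower level than GFP in all 5 libraries. The ratio of #2 to #1 was above 1 in its exact interval for each of the 9 genes and both targets. These intervals cover counting error only, so at high counts a small difference between libraries excludes 1. No share of all genes is given for this criterion. The ratio ranged from 1.28 to 2.54 for CAPH2 and from 1.10 to 2.10 for SMC2, with Ndufa4l2 at the top of both ranges and Pdk1 at the bottom. The median level of the 9 genes was 66.3% of GFP in CAPH2 #2, 61.8% in SMC2 #2, 51.3% in CAPH2 #1, 48.5% in SMC2 #1 and 44.3% in SMC1. The ERCC share of reads fell in the same order of libraries, from 2.40% in CAPH2 #2 and 1.57% in SMC2 #2 through 1.496% in CAPH2 #1 and 1.491% in SMC2 #1 to 1.27% in SMC1, with 2.32% in GFP, and its part in the pattern was not tested. For CAPH2 the hairpin with less Ncaph2 left (#1, 21.0%, against 34.8% for #2) was the one with the lower target genes, while the SMC2 hairpins left nearly the same share of Smc2 (70.7% and 71.9%). The fibroblast markers moved the other way, from 80.2 summed RPKM in CAPH2 #1 to 53.5 in CAPH2 #2 and from 61.9 in SMC2 #1 to 53.6 in SMC2 #2, and their part was not tested either.

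Scaling to the ERCC RNAs in place of the library's reads raised the median log2 change of all genes to 0.83 with SMC1, 0.32 with CAPH2 and 0.57 with SMC2. On that scale the median of the 9 target genes was -0.31, -0.48 and -0.26, below the median of all genes each time. The 9 target genes were then lower than GFP in 6 cases for SMC1 (not Slc2a1, Slc2a3 and Hk2), in 9 for CAPH2 and in 6 for SMC2 (not Slc2a3, Pdk1 and Hk2). Egln3, Ankrd37, Bnip3 and Ndufa4l2 were lower than GFP in all 3 knockdowns on either scale, while Vegfa was at -0.0083 with SMC2, in effect at the GFP level. Hif1a was higher on either scale, with log2 changes of 1.81, 0.87 and 1.22.

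The spread between hairpins allowed a test of 3 contrasts in 1 edgeR quasi-likelihood fit of all 6 libraries, with Benjamini-Hochberg adjustment over 18463 transcripts. Only CAPH2 and SMC2 have more than 1 library, so the lone GFP and SMC1 libraries were assumed to vary like them. The first contrast asked whether the condensin knockdowns (the mean of CAPH2 and SMC2) differed from GFP. Of the 8 target genes other than Ndufa4l2, 7 were lower at an adjusted p under 0.05, and 5.43% of all transcripts were. The edgeR log2 difference was -1.42 for Egln3 (SE 0.304, adjusted p = 0.0216), -1.32 for Bnip3 (SE 0.306, adjusted p = 0.0259) and -1.19 for Ankrd37 (SE 0.293, adjusted p = 0.0308). Slc2a1 had the lowest adjusted p of the target genes, with an edgeR difference of -0.80 (SE 0.137, adjusted p = 0.0127). Vegfa (-0.58), Slc2a3 (-0.48) and Pdk1 (-0.43) also passed, with edgeR adjusted p-values of 0.0369, 0.0455 and 0.0414, while Hk2 at -0.42 did not (edgeR adjusted p = 0.0765). Hif1a rose by 0.58 on the log2 scale (SE 0.0816, edgeR adjusted p = 0.00922), and 7.04% of all transcripts were called higher. For Ndufa4l2 the difference was -1.87 (SE 0.373), with no p because it was chosen on these libraries. These calls depend on the tool: DESeq2 called only Slc2a1 and Hif1a, and its adjusted p was 0.176 to 0.240 for the 6 other genes that edgeR called. Of all 18463 transcripts DESeq2 called 587 lower and 837 higher, and it gave 4296 no adjusted p.

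The second contrast set SMC1 against the condensin knockdowns. Egln3, Vegfa, Pdk1 and Hk2 were lower with SMC1, by 1.29, 0.61, 0.56 and 0.43 on the log2 scale, with edgeR adjusted p-values of 0.0249, 0.0164, 0.0057 and 0.0412. That is 4 of the 8 target genes other than Ndufa4l2, against 21.3% of all transcripts called lower. Ankrd37 (-0.97, edgeR adjusted p = 0.0671) and Bnip3 (-0.47, edgeR adjusted p = 0.341) did not pass. For the glucose transporters the edgeR differences were 0.095 for Slc2a1 (SE 0.144, adjusted p = 0.62) and -0.062 for Slc2a3 (SE 0.137, adjusted p = 0.74), so no difference was detected there with all libraries, although Slc2a1 passed as higher in SMC1 without CAPH2 #2 (edgeR log2 difference 0.20, adjusted p = 0.0345). Hif1a was higher with SMC1 by 0.35 (SE 0.0759, edgeR adjusted p = 0.00503), as were 23.1% of transcripts. Ndufa4l2 differed by -2.58 (SE 0.678), with no p given. DESeq2 kept the calls of Pdk1 and Hif1a and lost those of Egln3, Vegfa and Hk2, at adjusted p-values of 0.159, 0.114 and 0.250. In this contrast DESeq2 called 2708 of all 18463 transcripts lower and 2761 higher. All 7 ESC markers were lower in the SMC1 library as well, and their part in these differences was not tested.

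The third contrast, SMC2 against CAPH2, is the only one with 2 libraries in each group. Of the 9 genes other than Ndufa4l2 0 passed, at edgeR adjusted p-values of at least 0.99974, and 0.0162% of all transcripts did. At an unadjusted p under 0.05 the count was 0 by edgeR and by DESeq2. The log2 differences of these 9 ranged from -0.28 for Bnip3 (SE 0.316) to 0.15 for Hk2 (SE 0.129), and that of Ndufa4l2 was -0.66 (SE 0.412), with no p because it was chosen on the CAPH2 libraries among others. With standard errors of 0.30 to 0.41 for Ndufa4l2, Bnip3, Egln3 and Ankrd37, differences of a similar size between the condensin knockdowns would not be detectable with these hairpins.

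Other genes of the pathway were taken from lists of HIF machinery, further HIF targets, glycolysis and respiratory complex IV, leaving out the 10 genes above. Of 32 further HIF targets, 18 were lower and 3 higher than GFP in all 5 knockdown libraries, against 32.5% and 26.5% of all genes. EdgeR called 13 lower and 1 higher in the condensin knockdowns at an adjusted p under 0.05, against 5.43% and 7.04% of all transcripts. DESeq2 called 6 of the 32 lower and 0 higher, against 587 and 837 of all 18463 transcripts. In SMC1 against the condensin knockdowns edgeR called 7 of the 32 lower and 6 higher. Of all transcripts it called 21.3% lower and 23.1% higher, so the list did not stand out in that contrast. The median log2 change of the 32 against GFP was -0.49 with SMC1, -0.39 with CAPH2 and -0.43 with SMC2. With ERCC scaling it was 0.38, -0.076 and 0.17, so the direction of the list against GFP depends on the scaling, and each value stayed below the median of all genes on that scale (0.83, 0.32 and 0.57). Ndrg1, a stress-response gene, had the largest fall, from 22.7 RPKM in GFP to 3.46 in SMC1, 5.49 and 12.3 in CAPH2 #1 and #2, and 6.21 and 10.3 in SMC2 #1 and #2 (edgeR log2 difference of condensin from GFP -1.41, adjusted p = 0.0242). Its libraries stand in the order seen for Egln3. Ddit4, an inhibitor of mTORC1 signaling, was at 181.3 RPKM in GFP, 60.6 in SMC1, 85.4 and 111.4 in CAPH2 #1 and #2, and 66.1 and 122.7 in SMC2 #1 and #2 (edgeR log2 difference -0.90, adjusted p = 0.0389). Ppp1r3c, a glycogen-targeting phosphatase subunit, was low throughout, from 1.79 RPKM in GFP to 0.505 in SMC1 (edgeR log2 difference of condensin from GFP -1.03, adjusted p = 0.0314).

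Not all HIF targets were lower. Lox, which encodes the collagen cross-linking enzyme lysyl oxidase, was at 8.84 RPKM in GFP and rose to 57.8 in SMC1, with 28.2 and 14.2 in CAPH2 #1 and #2 and 23.2 and 16.5 in SMC2 #1 and #2 (edgeR log2 difference of condensin from GFP 1.23, adjusted p = 0.0382). DESeq2 did not call this rise, as it called 0 of the 32 further HIF targets higher. Lox is a mesenchymal gene as well as a HIF target, and its order of libraries is that of the fibroblast marker sum, whose part was not tested.

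Among the other 11 genes of the HIF machinery, edgeR and DESeq2 each called 1 lower and 0 higher in the condensin knockdowns. There edgeR called 5.43% and 7.04% of all transcripts, and DESeq2 587 and 837 of 18463, so the list did not stand out from the background. The gene was Egln1, the main prolyl hydroxylase and itself a HIF target, at 34.1 RPKM in GFP, 18.5 in SMC1, 14.8 and 21.1 in CAPH2 #1 and #2, and 15.3 and 18.7 in SMC2 #1 and #2 (edgeR log2 difference -0.96, adjusted p = 0.0112). Vhl, the ubiquitin ligase subunit, was at 17.4 to 20.6 RPKM in all 6 libraries. Arnt, the partner of HIF alpha, was at 38.6 RPKM in GFP and 22.5 in SMC1, and was lower in SMC1 than in the condensin knockdowns (edgeR log2 difference -0.62, adjusted p = 0.00142). Arnt2 was at 2.72 RPKM in GFP, 6.49 in SMC1 and 2.48 to 3.30 in the condensin libraries, and Crebbp, a coactivator, at 7.35, 11.8 and 7.40 to 10.1. Arnt2 and Crebbp were both higher in SMC1 than in the condensin knockdowns. The edgeR log2 difference was 1.197 for Arnt2 (adjusted p = 0.000101) and 0.47 for Crebbp (adjusted p = 0.00308). In that contrast edgeR called 3 of the 11 genes lower and 3 higher, against 21.3% and 23.1% of all transcripts. DESeq2 called 2 of the 11 lower and 3 higher there. Hif3a was at 4.98 RPKM in GFP, 4.41 in SMC1 and 2.86 to 4.30 in the condensin libraries.

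Of the 17 glycolysis genes other than Hk2, edgeR called 11 lower and 0 higher in the condensin knockdowns against GFP (5.43% and 7.04% of all transcripts). DESeq2 called 6 of the 17 lower and 0 higher (587 and 837 of all 18463 transcripts). The glycolysis list, Hk2 included, had a median log2 change of -0.72 with SMC1, -0.50 with CAPH2 and -0.53 with SMC2, and 16 of its 18 genes were lower than GFP in all 5 libraries, against 32.5% of all genes. With ERCC scaling the medians were 0.15, -0.21 and 0.068, so the direction of the median with SMC1 and SMC2 depends on the scaling. Each value stayed below the median of all genes on that scale (0.83, 0.32 and 0.57). On that scale 7 of the 18 genes were lower than GFP with SMC1, 16 with CAPH2 and 5 with SMC2. Aldoc, aldolase C, was at 32.8 RPKM in GFP, 4.55 in SMC1, 10.0 and 19.6 in CAPH2 #1 and #2, and 12.1 and 16.5 in SMC2 #1 and #2 (edgeR log2 difference of condensin from GFP -1.17, adjusted p = 0.0228). Pfkp, a phosphofructokinase, was at 64.1 RPKM in GFP, 13.9 in SMC1 and 35.7 to 49.3 in the condensin libraries (edgeR log2 difference -0.61, adjusted p = 0.031). Hk1, the constitutive hexokinase, was at 22.3 RPKM in GFP, 10.1 in SMC1 and 13.1 to 14.7 in the condensin libraries (edgeR log2 difference -0.68, adjusted p = 0.00893). Ldhb, a lactate dehydrogenase subunit, was at 227.0 RPKM in GFP, 97.9 in SMC1 and 122.1 to 170.0 in the condensin libraries (edgeR log2 difference -0.64, adjusted p = 0.0126). Eno2, at 4.15 RPKM in GFP, 1.01 in SMC1 and 1.81 to 2.93 in the condensin libraries, did not pass in the condensin contrast (edgeR adjusted p = 0.0678). Gapdh cannot be read here, at 2.07 to 2.70 RPKM, because 88.2% of its transcript has near-identical copies in 2 or more other places.

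Of the 12 nuclear genes of complex IV, the respiratory complex that NDUFA4 joins, 11 were lower than GFP in all 5 libraries, against 32.5% of all genes, by small amounts in the condensin knockdowns. EdgeR called 0 of 12 in the condensin knockdowns against GFP at an adjusted p under 0.05 (5 at an unadjusted p under 0.05), with 5.43% of all transcripts called lower. DESeq2 also called 0, with 587 of all 18463 transcripts called lower. The edgeR count was 4 lower without CAPH2 #1, 5 without CAPH2 #2, 2 without SMC2 #1 and 5 with no filter. Their median log2 change was -0.23 with CAPH2 and -0.19 with SMC2, and 0.10 and 0.42 with ERCC scaling. With SMC1 it was -0.66 (0.21 with ERCC scaling), and edgeR called 8 of 12 lower in SMC1 than in the condensin knockdowns, against 21.3% of all transcripts. Cox6c, Cox5a, Cox7c, Cox4i1 and Cox7b had the largest changes with SMC1 among those with a mean of at least 50 counts, with log2 values from -0.94 to -0.66.

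**Figure D4:**
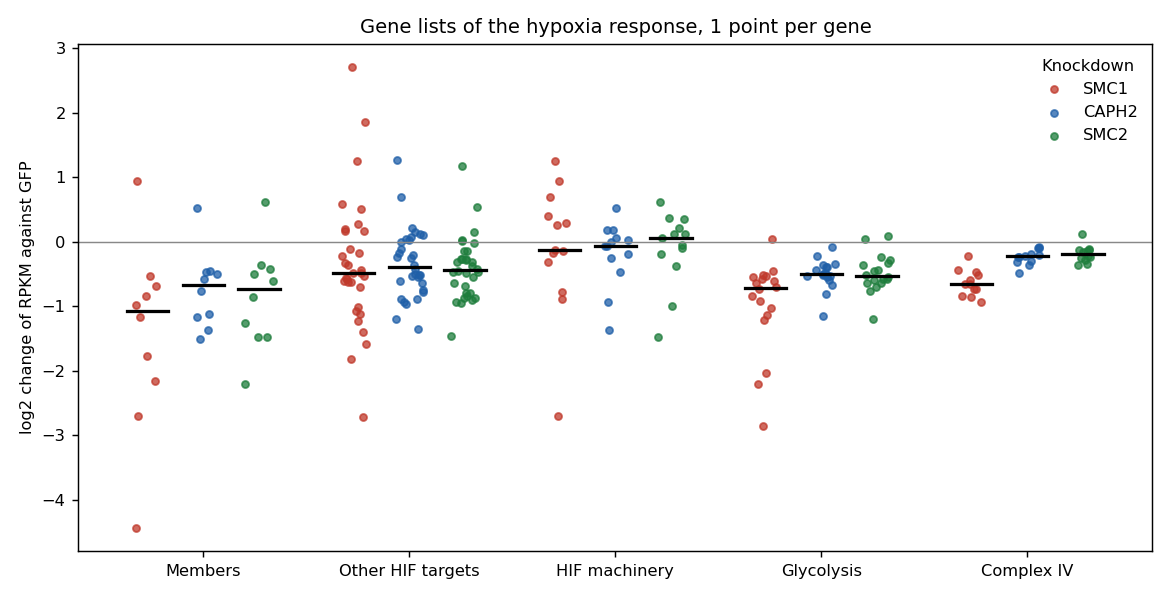
Log2 change of RPKM against GFP for each gene (1 point) of the 10 hypoxia-response genes (Members, Hif1a included) and of 4 lists, for SMC1 and for the mean of the CAPH2 and of the SMC2 hairpins, with black bars at the medians. HIF machinery includes Hif1a and Egln3, and glycolysis includes Hk2. The glycolysis medians lie at -0.72, -0.50 and -0.53 (0.15, -0.21 and 0.068 with ERCC scaling), while the further HIF targets spread from -2.72 to 2.71 with SMC1.

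Close relatives of the 10 genes did not all move with them. Ndufa4, the complex IV subunit that NDUFA4L2 resembles, was at 251.6 RPKM in GFP, 214.8 in SMC1, 238.9 and 229.9 in CAPH2 #1 and #2, and 233.8 and 229.3 in SMC2 #1 and #2. Its libraries lay within a narrow range, and the condensin knockdowns did not differ detectably from GFP (edgeR log2 difference -0.10, adjusted p = 0.397). Bnip3l, the mitophagy receptor related to BNIP3, was at 31.7 RPKM in GFP and 25.1 to 28.1 in the knockdown libraries (edgeR log2 difference of condensin from GFP -0.27, adjusted p = 0.0687). Pdk2 was lower in the condensin knockdowns (edgeR log2 difference -0.79, adjusted p = 0.0183), as were Vegfb (-0.52, adjusted p = 0.0271) and Slc2a8 (-0.50, adjusted p = 0.0264). Vegfc was at 7.24 RPKM in GFP, 4.59 in SMC1 and 8.67 to 11.4 in the condensin libraries (edgeR log2 difference of condensin from GFP 0.41, adjusted p = 0.109). Epas1, which encodes the HIF-2 alpha subunit, was at 7.24 RPKM in GFP, 6.62 in SMC1 and 7.77 to 10.1 in the condensin libraries (edgeR log2 difference 0.29, adjusted p = 0.132). Pdk3, Pdk4, Slc2a4, Pgf and Egln2 were not called in that contrast (edgeR adjusted p = 0.120 to 0.962). Slc2a2 was at 0 to 1 counts and Hk3 at 4 to 9 counts in every library, too few to compare.

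The genes whose levels followed Ndufa4l2 most closely were sought over the 6 libraries, by Pearson's r of log2(RPKM + 0.1) among 482 genes with at least a 4-fold range and a mean of at least 50 counts. The 5 highest were Cyp2s1 (r = 0.994), Atp6v0a4 (0.989), Elf3 (0.984), Cspg5 (0.982) and Aldoc (0.977). Egln3 came 6th with 0.973 and Ankrd37 10th with 0.960. The other members did not reach the 4-fold range, so they are not among the 482 genes and have no rank. Their r was 0.98 for Vegfa, 0.97 for Pdk1, 0.90 for Hk2, 0.88 for Bnip3, 0.78 for Slc2a3, 0.67 for Slc2a1 and -0.94 for Hif1a. Cyp2s1, a cytochrome P450, was at 6.15 RPKM in GFP, 1.35 in SMC1, 2.75 and 3.93 in CAPH2 #1 and #2, and 2.51 and 3.36 in SMC2 #1 and #2. Elf3, an epithelial transcription factor, was at 33.5 RPKM in GFP, 5.67 in SMC1, 15.2 and 21.4 in CAPH2, and 13.5 and 18.8 in SMC2. These r values describe 6 libraries of which 1 is the shared control and 1 is SMC1, the lowest, so they carry no p.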

How the data were processed

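Transcripts were measured in 6 RNA-seq libraries of V6.5 ESCs. For alignment to mm9 the authors ran Bowtie with -e 70, -k 1, -m 2 and -n 2, and they counted exonic reads without strand. The deposited files give counts per RefSeq transcript and RPKM values, which the authors scaled to exon length and library reads (18823245 to 23324537), not to the ERCC spike-ins. Of 26073 rows, 25353 matched a RefSeq symbol. Sequencing depth sets the exact binomial (Clopper-Pearson) intervals, which cover counting error only.

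Log2 changes against GFP used the deposited RPKM with no pseudocount, over genes of at least 1 RPKM in GFP, and the hairpins of a target were averaged first. Tests used edgeR 4.0.16 (TMM, quasi-likelihood, Benjamini-Hochberg adjustment) on rows that reached 10 counts in 2 or more libraries. The fit was tested on simulated counts that gave all transcripts 1 common spread. That simulation does not cover genes whose hairpins differ widely, such as Ndufa4l2 and Egln3. Nothing in the labels says which cultures were separate, so p-values measure the spread between these libraries and hairpins.

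The alternatives were DESeq2 1.42.0, other scalings and filters, a pseudocount of 1, 1 row per gene, a replicate block and leaving out each hairpin. The count without the SMC1 library was added after seeing the data. Copies in the genome were searched with blastn 2.17.0, and other steps used Python 3.11.15 and scipy 1.17.1. The members and lists were chosen with earlier results of these data known. Named were the 10 members, their relatives, at most 5 genes per list with the largest log2 change against GFP and a mean of at least 50 counts, and the 5 genes closest to Ndufa4l2. Vhl and Gapdh were named outside this rule, after their values were seen. 1 gene that the rule names is not reported here.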

Additional observations from a re-analysis of the deposited data

How the results depend on the processing

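Scaling to ERCC counts moved the median log2 change of the 9 target genes to -0.31 for SMC1, -0.48 for CAPH2 and -0.26 for SMC2, and turned the direction of Slc2a1 (0.17), Slc2a3 (0.34) and Hk2 (0.029) with SMC1 and of Slc2a3 (0.10), Pdk1 (0.17) and Hk2 (0.24) with SMC2. TMM factors, DESeq2 size factors and a pseudocount of 1 RPKM kept all 9 below GFP and left the counts of 2-fold falls at 5, 4 and 4. ERCC scaling lowered those counts to 3 for SMC1, 2 for CAPH2 and 1 for SMC2. The count of all genes that fell 2-fold with SMC1, CAPH2 and SMC2 was 1043, 78 and 63, against 347, 35 and 12 with ERCC scaling, 698, 18 and 14 with the pseudocount and 1996, 758 and 713 with no filter.

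In the contrast of condensin with GFP edgeR called 2302 transcripts and DESeq2 1424, and leaving out 1 hairpin gave 1604 to 5000, with 3506 without CAPH2 #1 and 5000 without CAPH2 #2. DESeq2 lost the calls of Egln3, Ankrd37, Bnip3, Vegfa, Pdk1 and Slc2a3, and the cause was not tested. A fit without 1 hairpin leaves that target with 1 library and takes its spread from the other target's pair alone. Whether a call is kept in such a fit therefore cannot show that it is robust, here and in the contrasts below. Hk2 passed with no filter (edgeR adjusted p = 0.0127) and in 3 of the 4 fits that left out a hairpin. In the contrast of SMC1 with condensin the call of Hk2 was lost without SMC2 #2 (edgeR adjusted p = 0.0519), Ankrd37 passed with no filter (edgeR adjusted p = 0.0126) and in 3 of the 4 fits that left out a hairpin, Bnip3 passed without CAPH2 #1 (edgeR adjusted p = 5.58e-05), and Slc2a1 passed as higher without CAPH2 #2 (edgeR adjusted p = 0.0345). Slc2a3 there ranged from -0.15 to 0.046 on leaving out a hairpin, turning to 0.017 and 0.046.

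SMC2 against CAPH2 gave 3 calls in edgeR, 6 with no filter, 1 with only the 4 CAPH2 and SMC2 libraries, and 1 to 390 on leaving out a hairpin. The members' log2 differences crossed 0 on leaving out a hairpin for 9 of the 10 genes, over ranges of -1.29 to 0.13 for Ndufa4l2, -0.22 to 0.20 for Vegfa, -0.26 to 0.12 for Slc2a1, -0.19 to 0.19 for Slc2a3, -0.14 to 0.22 for Pdk1, -0.048 to 0.38 for Hk2, -0.76 to 0.35 for Bnip3, -0.53 to 0.52 for Egln3 and -0.58 to 0.48 for Ankrd37. Without CAPH2 #1, Bnip3 and Egln3 passed as lower in SMC2 (edgeR adjusted p = 0.000768 and 0.00071), and without CAPH2 #2, Egln3 and Hk2 passed as higher (edgeR adjusted p = 0.00434 and 0.004), so the direction turned with the hairpin left out. With the replicate number as a block edgeR called 29 transcripts and none of the 9 members other than Ndufa4l2. Same-numbered libraries are different hairpins whose deviations correlated at 0.0433 (0.120 over rows with a mean of at least 50 counts), with only 2 pairs and no label that ties them, so the numbers are not taken as pairs.

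A single GFP and a single SMC1 library limit every comparison, and the counts of Ndufa4l2 in SMC1 (25) set the width of its interval.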
